A study of Mus musculus with 2 samples.

Results

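Autophagy and lysosome genes were followed through the return of primed mouse cells to a naive state. The list has 35 genes of 33963 in the count table: 3 transcription factors of the lysosome, 5 genes that start or extend the autophagosome, the 5 genes of the Atg8 family measured here, 1 cargo receptor, 4 lysosomal membrane proteins, 7 cathepsins, 3 other hydrolases, 3 proteins of the lysosomal lumen, 3 subunits of the V-ATPase and the glycoprotein gene Gpnmb. Members were found by symbol, and all 35 had reads. The list was chosen with earlier results of these data known, so counts of called members do not come from a list made without regard to levels. Reads were summed over groups of cells and are given as CPM, the reads of a gene per 1000000 reads of the group. These levels are not corrected for transcript length, so each gene is compared only with itself.

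Autophagy encloses part of the cytoplasm in a double membrane, the autophagosome, which fuses with the lysosome. There V-ATPase pumps acidify the lumen and cathepsins and other hydrolases degrade the content. Ulk1 is the kinase that starts the process and is itself a substrate of AMPK, the energy-sensing kinase activated in this study. Proteins of the Atg8 family are joined to lipids of the growing membrane, and Sqstm1 (p62) ties cargo to them. Tfeb, Tfe3 and Mitf are related transcription factors that activate many lysosomal genes, largely through their position in the cell, which RNA levels do not show.

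Cells came from 5 populations of strain 129/Ola according to the labels, each tagged once and sequenced in 1 pooled cDNA library. Naive cells were mouse embryonic stem cells (mESCs) of the Rex1-GFP line, which carry a GFP reporter driven by the Rex1 promoter. Primed cells were epiblast stem cells (mEpiSCs) of the Oct4GIP line, grown on mouse embryonic fibroblasts (MEF) with FGF2 and Activin A. The d8 and d16 populations were Oct4GIP cells treated for 8 or 16 days with AICAR, an AMPK activator, together with leukemia inhibitory factor (LIF). The d16+10p population was d16 cells passaged 10 times in 2iL, a naive-state medium in which LIF is combined with 2 kinase inhibitors. Reverted and primed cells thus shared the Oct4GIP line, whereas naive cells were of another line, so that line and state cannot be told apart when naive cells are compared with the rest. The d8 cells were divided at 1000 CPM of Lyz2, a lysozyme gene of macrophages, and the d16 cells at 1000 CPM of Dppa5a, a gene of naive cells.

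This gave 801 naive, 1826 primed, 8594 d8 Lyz2-low, 1033 d8 Lyz2-high, 3037 d16 Dppa5a-low, 1278 d16 Dppa5a-high and 1151 d16+10p cells, with 17245249 to 161329455 summed reads per group and median depths between 8691 and 21551 reads per cell. Near the cut, between 500 and 2000 CPM, lay 512 of 9627 d8 cells and 295 of 4315 d16 cells. The 8 genes listed as markers of naive cells summed to 5312 CPM in d16 Dppa5a-high and 3929 CPM in d16+10p cells, against 3808 CPM in naive and 490 CPM in primed-tagged cells. Dppa5a, which divided the d16 cells, is 1 of the 8, with a median of 3611 CPM per cell over the cut. The d16 Dppa5a-high sum is therefore largely set by that division. The primed tag did not mark a pure population: 25.8% of its cells lay in clusters with high Pou5f1 (Oct4), against 70.3% of naive, 94.5% of d16 Dppa5a-high and 81.0% of d16+10p cells. Comparisons were therefore also made between home clusters, the cells of a tag in the Pou5f1-high cluster most enriched for it, which were 509 naive, 418 primed, 1181 d16 and 891 d16+10p cells. Cells over the Lyz2 cut also carried the naive (41), primed (99), d16 (112 Dppa5a-low and 18 Dppa5a-high) and d16+10p (26) tags. Every group was 1 sample, so differences are given with their counting error at 95%, without a test, and a gene was called when it differed by at least 2-fold and reached 10 CPM in either group.

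Promoters of lysosomal genes are known for the E-box CACGTG, which reads the same on both strands and is the core of the element bound by Tfeb and its relatives. RefSeq windows from 250 bases before to 50 after the transcription start (GRCm38.p6) were available for 29 of the 35 genes. CACGTG was found in those of 9 genes (31.0%): Atg5, Atg7, Atp6v0d1, Ctsa, Ctsd, Ctsl, Gaa, Lamp1 and Mcoln1. The Atg7 window (chr6:114670846-114671145) lies inside the gene, which begins at 114643097. So does the Ctsl window (chr13:64370471-64370770), in a gene that begins at 64370890 on the minus strand. The annotated starts of Mcoln1 (3500457), Gaa (119267887) and Ctsd (142388038) lie within the 250 bases before the RefSeq start. Ctsa had 2 windows, and only that at chr2:164833523-164833822, downstream of the gene's annotated start, held the motif. Of all 27025 genes with a window, 8.09% held it, and of the 18100 in the count table it was in 9.46%. The longer form TCACGTGA, which contains the E-box, was found in 4 of the 29 genes (13.8%) and in 1.12% of all genes with a window. The 250 bases before the start are shown for 3 of the 9 genes, those with 2 or more matches there, with CACGTG in capitals. They lie at chr8:13158911-13159160 on the plus strand for Lamp1, a protein that coats the inner face of the lysosomal membrane, at chr8:3500269-3500518 on the plus strand for Mcoln1, a lysosomal calcium channel, and at chr7:142387828-142388077 on the minus strand for Ctsd, an aspartic protease.
Lamp1: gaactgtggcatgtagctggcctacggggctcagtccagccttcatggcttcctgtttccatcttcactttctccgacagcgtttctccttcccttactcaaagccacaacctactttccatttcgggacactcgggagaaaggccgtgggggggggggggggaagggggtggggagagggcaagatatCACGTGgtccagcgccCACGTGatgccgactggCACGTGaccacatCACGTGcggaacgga
Mcoln1: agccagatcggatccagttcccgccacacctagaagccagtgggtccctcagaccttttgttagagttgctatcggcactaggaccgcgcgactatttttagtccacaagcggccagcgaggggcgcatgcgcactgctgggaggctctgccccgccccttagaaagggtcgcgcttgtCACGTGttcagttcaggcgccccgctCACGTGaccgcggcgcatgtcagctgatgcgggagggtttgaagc
Ctsd: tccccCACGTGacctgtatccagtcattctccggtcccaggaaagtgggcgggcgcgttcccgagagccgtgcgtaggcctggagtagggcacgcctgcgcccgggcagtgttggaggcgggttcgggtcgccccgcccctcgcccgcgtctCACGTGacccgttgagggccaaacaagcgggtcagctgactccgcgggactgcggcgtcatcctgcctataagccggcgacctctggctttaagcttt
In the whole windows, Lamp1 had 4 matches, beginning 61, 45, 28 and 15 bases before the start, Mcoln1 had 2, at 71 and 45 bases, and Ctsd had 2, at 245 and 98 bases. No match was found in the windows of Gabarapl2, Ulk1, Hexa, Mitf or Tfeb, the 5 genes with the largest differences between naive and primed home clusters in the results that follow.

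Within d8, lysosomal hydrolases separated the cells with high Lyz2 from the others. Of 34 genes tested, 13 were at least 2-fold higher in Lyz2-high than in Lyz2-low cells and 0 were lower. Of all 10343 genes tested, 6.5% were higher and 7.74% lower. The 13 were 6 of the 7 cathepsins, Lipa, Hexa, Psap, Npc2, Atp6v0d2, Mitf and Gpnmb. The median log2 ratio of the 35 genes was 0.54 and that of all genes tested -0.40, a shift of the whole table against which the members' ratios are read. With TMM factors, which scale by the bulk of genes, the median of all genes became -0.09, 80.5% instead of 45.6% of all calls were upward, and 14 of the 35 genes were called higher, with Atg7 added to the 13.

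Ctss, a cysteine protease of antigen-presenting cells, had the largest ratio. Its level was 97.7 CPM in naive, 95.6 in primed, 39.6 in d8 Lyz2-low, 2776 in d8 Lyz2-high, 108 in d16 Dppa5a-low, 45.8 in d16 Dppa5a-high and 66.1 in d16+10p cells. With 1 CPM added to both levels, that of d8 Lyz2-high cells was 68.3-fold that of d8 Lyz2-low cells (log2 ratio 6.09, interval 6.09 to 6.17 without the added CPM). Gpnmb, a transmembrane glycoprotein of phagocytes and pigment cells, was at 4271 CPM in d8 Lyz2-high and 84.0 CPM in d8 Lyz2-low cells (log2 ratio 5.65). Atp6v0d2, the form of the V-ATPase d subunit found in osteoclasts and macrophages, was at 1001 and 18.3 CPM (log2 ratio 5.70), whereas the widely used form Atp6v0d1 was at 135 CPM in both groups. The subunit Atp6v1h was at 121 and 93.0 CPM (log2 ratio 0.38). Of the 3 subunits on the list, then, only that of phagocytes passed the 2-fold mark. Of 15 other V-ATPase subunits, 4 were called higher, where 6.5% of all genes were. Their median log2 ratio was 0.67, against -0.40 for all genes tested.

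Ctsd stood highest in d8 Lyz2-high cells, at 14677 CPM against 1191 CPM in d8 Lyz2-low cells (log2 ratio 3.62). The other cathepsins called were Ctsb (6542 against 903 CPM, log2 ratio 2.86), Ctsl (2.55), Ctsz (2.51) and Ctsa (1.97). Lipa, the acid lipase that frees cholesterol from its esters, was at 1381 and 52.6 CPM (4.69). Psap, whose product is cut into the saposins that help degrade sphingolipids, was at 6080 and 777 CPM (2.97), and Hexa, a subunit of beta-hexosaminidase, at 242 and 47.1 CPM (2.34). Npc2, a cholesterol carrier of the lumen, was at 1746 and 770 CPM (1.18). Both remaining hydrolases differed by less than 2-fold: Ctsk, a collagen-degrading cathepsin, was at 79.4 and 56.7 CPM, and Gaa, the acid alpha-glucosidase, at 81.5 and 81.9 CPM.

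The autophagy side of the list had smaller ratios between the d8 groups. None of the 5 genes for initiation and elongation, the 5 of the Atg8 family and the 4 membrane proteins was called. Under TMM scaling Atg7 was (log2 ratio 0.84 without it). With 6.5% of all genes higher and 7.74% lower, the absence of calls lay near the share over all genes. Median log2 ratios of these sets were -0.18, 0.05 and 0.21, against -0.40 for all genes tested. Gabarap was at 504 CPM in Lyz2-high and 347 CPM in Lyz2-low cells (log2 ratio 0.54), Map1lc3b at 253 and 245 CPM (0.05), Sqstm1 at 355 and 426 CPM (-0.26) and Ulk1 at 21.9 and 29.5 CPM (-0.41). Lamp1, a major membrane protein of the lysosome, was at 910 and 588 CPM (0.63). Among the factors, Mitf was at 31.0 and 8.00 CPM (1.83), Tfeb at 8.00 and 4.87 CPM, under the level needed for a call, and Tfe3 at 36.4 and 44.1 CPM (-0.27). Of the genes with CACGTG in their window, 3 of 9 were called higher, and of those without it 8 of 20. The shares called over all genes with and without the motif were not counted, so these counts are no result about the motif.

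The cells over the Lyz2 cut had the markers of macrophages: the 11 marker genes other than Lyz2 summed to 3084 CPM in d8 Lyz2-high against 101 CPM in d8 Lyz2-low cells, and 813 of the 1033 cells lay in cluster 8, the macrophage-like cluster. With Lyz2, which the division used and which makes up most of the sum, the 12 markers came to 27302 and 263 CPM. Of the 12, 11 reached 10 CPM in the Lyz2-high cells and 4 to 8 in the other groups. The 7 osteoclast markers summed to 93.8 CPM in the Lyz2-high cells and to 18.6 to 37.0 CPM in the other groups. The 5 melanocyte markers summed to 4.73 CPM and to 7.28 to 14.4 CPM. The labels name no macrophages, and where these cells came from was not tested. The groups are sums over cells, so a summed level alone does not separate fewer cells of a type from less RNA per cell. Levels in clusters and shares of cells with a read are given beside the sums for that reason.

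**Figure D1:**
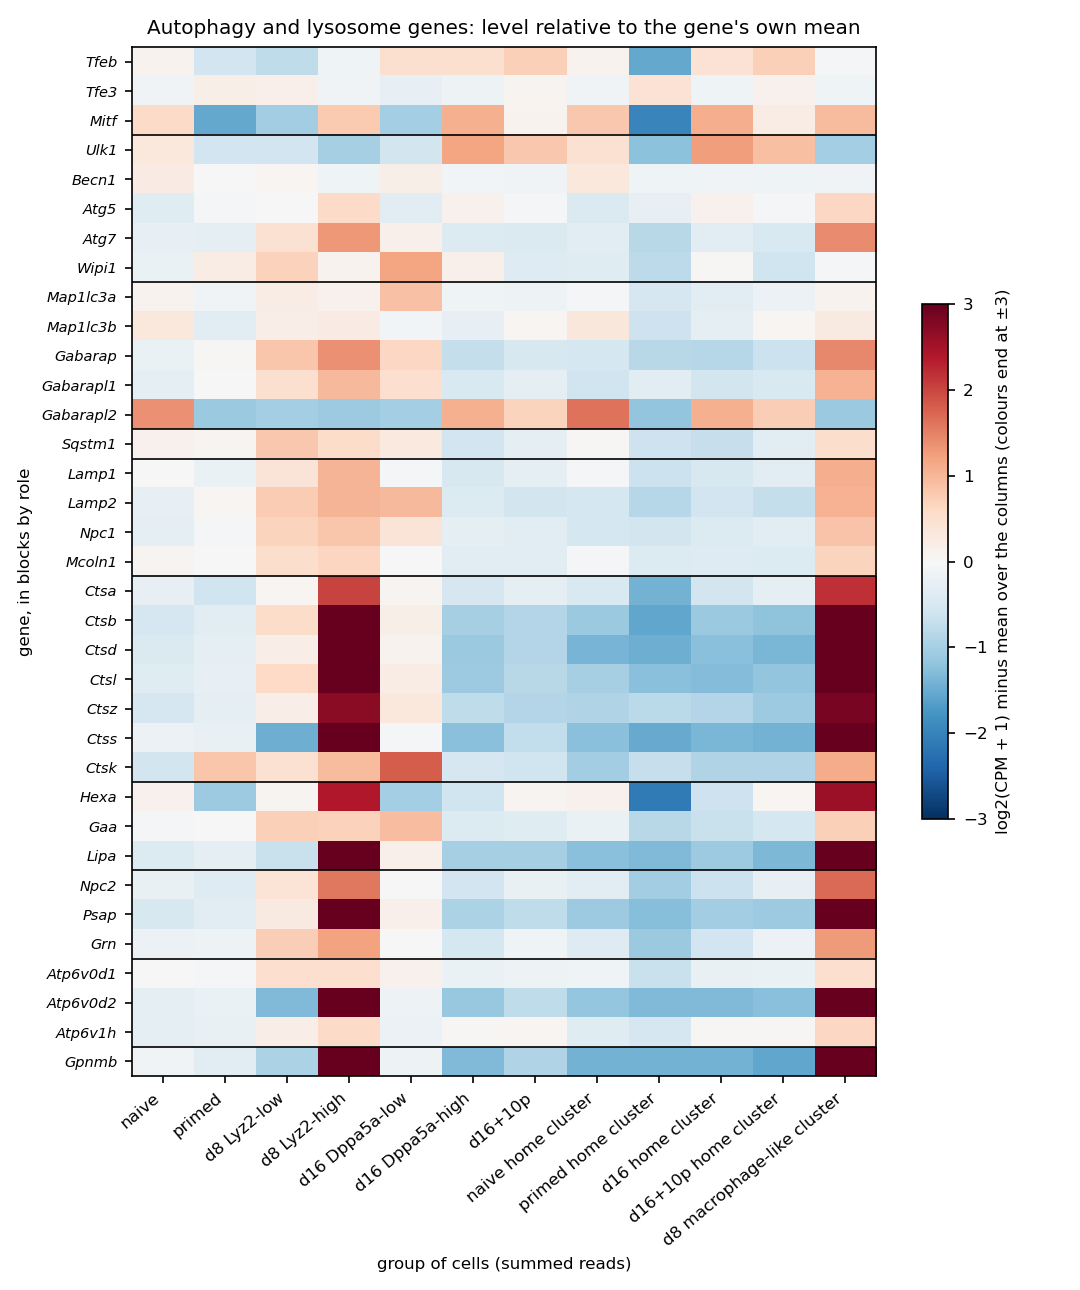
Level of each of the 35 genes (rows, in blocks by role) in the 7 groups and 5 clusters (columns), as log2(CPM + 1) minus the gene's mean over the columns, with colours ending at -3 and 3. The d8 Lyz2-high and d8 macrophage-like columns are dark red for the cathepsins other than Ctsk, for Lipa, Psap, Atp6v0d2 and Gpnmb, while Gabarapl2 and Ulk1 are red in naive, d16 Dppa5a-high and d16+10p columns and blue in primed ones.

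Within d16, cells with high Dppa5a had less RNA of most lysosomal genes than the remaining cells, and more of 3 genes. Of the 35 genes, 14 were at least 2-fold lower and 3 higher. Of all 11348 genes tested, 16.6% were lower and 11.2% higher. The median log2 ratio was -0.69, against -0.03 for all genes tested, and 28 of the 35 ratios were below 0. The 14 were Ctsk, Ctsl, Ctsd, Ctss, Ctsb, Ctsz, Lamp2, Gaa, Lipa, Psap, Gabarap, Gpnmb, Wipi1 and Map1lc3a.

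Ctsk differed most, at 28.7 CPM in Dppa5a-high and 147 CPM in Dppa5a-low cells (log2 ratio -2.31, interval -2.48 to -2.23). Lamp2, needed for fusion of autophagosomes and for chaperone-mediated autophagy, was at 164 and 429 CPM (-1.38). Gabarap was at 117 and 298 CPM (-1.34), Gaa at 37.0 and 95.3 CPM (-1.34), Ctsl at 371 and 934 CPM (-1.33) and Ctsd at 476 and 1116 CPM (-1.23). Wipi1, which binds the lipid phosphatidylinositol 3-phosphate on forming autophagosomes, was at 36.8 and 76.7 CPM (-1.04), and Map1lc3a at 17.9 and 37.4 CPM (-1.02). Both lay next to the 2-fold mark and were within it under TMM scaling, which called 12 genes lower, where 15.4% of all genes were.

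The Dppa5a-low group also had more cells of other types. Its 112 cells over the Lyz2 cut were 3.69% of the group, against 1.41% of Dppa5a-high cells, and the 11 macrophage markers other than Lyz2 summed to 163 and 91.8 CPM. The 9 fibroblast markers summed to 3678 and 612 CPM and the 7 neural markers to 766 and 162 CPM. Cluster 3, led by Fabp7, Hepacam2 and Rfx4, had 1835 cells, most of them with the d16 tag. When cells over the Lyz2 cut were left out, 7 of the 14 genes remained at least 2-fold lower: Ctsk (-2.36), Lamp2 (-1.38), Gaa (-1.38), Gabarap (-1.32), Ctsl (-1.18), Wipi1 (-1.06) and Map1lc3a (-1.02). In that setting 16.5% of all genes tested were lower and 11.1% higher, so decreases among the members were little more frequent than over all genes. Of the 7 no longer called, Ctsz (-0.97), Ctsb (-0.93), Psap (-0.89), Ctsd (-0.84) and Lipa (-0.78) stayed below 0 by less than 2-fold, while Ctss was at -0.07 and Gpnmb at 0.01. The part of fibroblast-like and neural cells in these ratios was not tested, and Ctsk was at 568 CPM in fibroblast-like cluster 6 against 19.4 to 128 CPM elsewhere, among clusters with 100 or more cells.

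The 3 genes that were higher in Dppa5a-high cells were Gabarapl2, Mitf and Ulk1. All 3 were called higher in each setting tried, other than Mitf where 50 CPM was required.

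**Figure D2:**
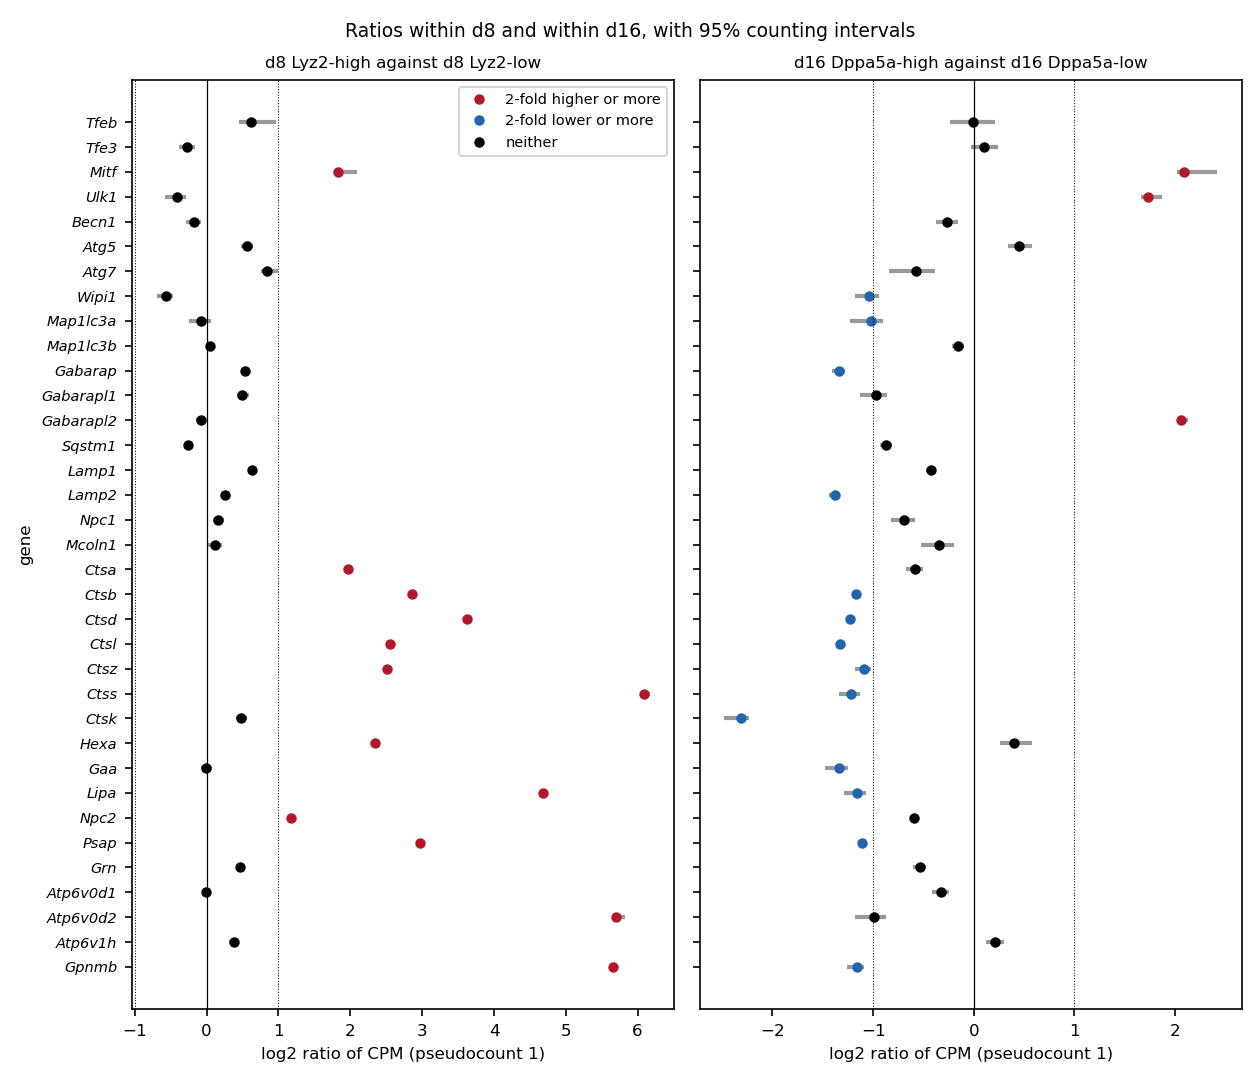
Log2 ratio of CPM for the 35 genes in d8 Lyz2-high against Lyz2-low cells (left) and in d16 Dppa5a-high against Dppa5a-low cells (right), with grey 95% counting intervals computed without the pseudocount and dotted lines at 2-fold. On the left 13 genes lie to the right of the 2-fold line, up to 6.09 for Ctss; on the right 14 genes lie to the left of it and Mitf, Ulk1 and Gabarapl2 to the right.

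Gabarapl2 (GATE-16; chromosome 8, 111940703 to 111953612, plus strand, GRCm38), an Atg8 protein of autophagosomes and of transport through the Golgi, was high in naive and reverted cells and low in primed ones. None of the other 4 Atg8 genes was called between primed and naive cells. There 3.55% of all genes were higher and 4.69% lower, so 0 of 4 lay near that share. Between primed and naive home clusters 4 of the 5 Atg8 ratios were below 0, with a median of -0.45 against 0.01 for all genes tested. The level of Gabarapl2 was 576 CPM in naive, 102 in primed, 110 in d8 Lyz2-low, 104 in d8 Lyz2-high, 110 in d16 Dppa5a-low, 464 in d16 Dppa5a-high and 355 in d16+10p cells. The 4 groups with low levels lay between 102 and 110 CPM. Its home cluster levels were 696 CPM for naive, 97.5 CPM for primed, 468 CPM for d16 and 374 CPM for d16+10p cells. Primed against naive home clusters differed by a log2 ratio of -2.82 (interval -2.93 to -2.74), and d16 against primed home clusters by 2.25 (2.17 to 2.36). The d16+10p level stayed under the naive one, by a log2 ratio of -0.70 over all cells and -0.90 between home clusters.

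A read of Gabarapl2 was found, after each cell was thinned to 5000 reads, in 80.1% of naive, 34.3% of primed, 36.3% of d8 Lyz2-low, 34.1% of d8 Lyz2-high, 35.6% of d16 Dppa5a-low, 76.5% of d16 Dppa5a-high and 70.7% of d16+10p cells. Thinning left out 68, 271, 602, 153, 564, 40 and 69 cells of these groups. Without thinning the shares were 85.5, 56.2, 64.1, 61.2, 49.9, 89.7 and 86.2%. In the macrophage-like cells of d8 the share was 34.1% after thinning and 63.9% without, at a median depth of 17497.5 reads per cell. Of these 822 cells, 813 belong to the d8 Lyz2-high group, so they are no separate reference for the low groups. Gm3724, Gm5829 and Gm6051 are near-identical copies of the Gabarapl2 transcript, and their symbols held at most 3.13 CPM each in the 7 groups. How the counting divided reads that match both was not tested.

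Ulk1 was at 55.1 CPM in naive, 29.6 in primed, 29.5 in d8 Lyz2-low, 21.9 in d8 Lyz2-high, 30.2 in d16 Dppa5a-low, 103 in d16 Dppa5a-high and 78.5 in d16+10p cells. The d16 Dppa5a-high level was above that of the other 6 groups, and it was above the naive level in home clusters as well (107 against 61.5 CPM, log2 ratio 0.79, interval 0.68 to 0.92). Between primed (18.3 CPM) and naive home clusters the log2 ratio was -1.69, and between all primed-tagged and naive cells it was -0.88, within 2-fold. From primed to d16 home clusters it rose by a log2 ratio of 2.48.

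Mitf was at 26.8 CPM in naive, 5.38 in primed, 8.00 in d8 Lyz2-low, 31.0 in d8 Lyz2-high, 8.10 in d16 Dppa5a-low, 37.7 in d16 Dppa5a-high and 18.9 in d16+10p cells. It was therefore high both in the naive-like groups and in the macrophage-like cells. Between d16 Dppa5a-high and primed cells the log2 ratio was 2.60 (interval 2.56 to 3.07), and between home clusters it was 3.07. After 10 passages the level was lower than at d16 by a log2 ratio of -0.96, which does not reach 2-fold. Tfeb was low throughout, at 4.87 to 15.2 CPM in the 7 groups, and its level in the primed home cluster (2.43 CPM) was below that in the naive (9.64 CPM), d16 (12.3 CPM) and d16+10p (15.1 CPM) home clusters. Tfe3 did not share this pattern. It was at 32.9 to 44.4 CPM in the groups and, among the groups and home clusters, was highest in the primed home cluster, at 53.8 CPM against 36.2 CPM in the naive one (log2 ratio 0.56).

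Hexa was at 48.9 CPM in naive, 20.6 in primed, 47.1 in d8 Lyz2-low, 242 in d8 Lyz2-high, 21.7 in d16 Dppa5a-low, 29.0 in d16 Dppa5a-high and 47.1 in d16+10p cells. The home clusters had 49.3 CPM (naive), 9.41 CPM (primed), 28.7 CPM (d16) and 46.4 CPM (d16+10p). Its d16 level thus lay between the primed and naive ones, and the d16+10p level differed from the naive one by less than counting error (log2 ratio -0.09, interval -0.23 to 0.06).

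**Figure D3:**
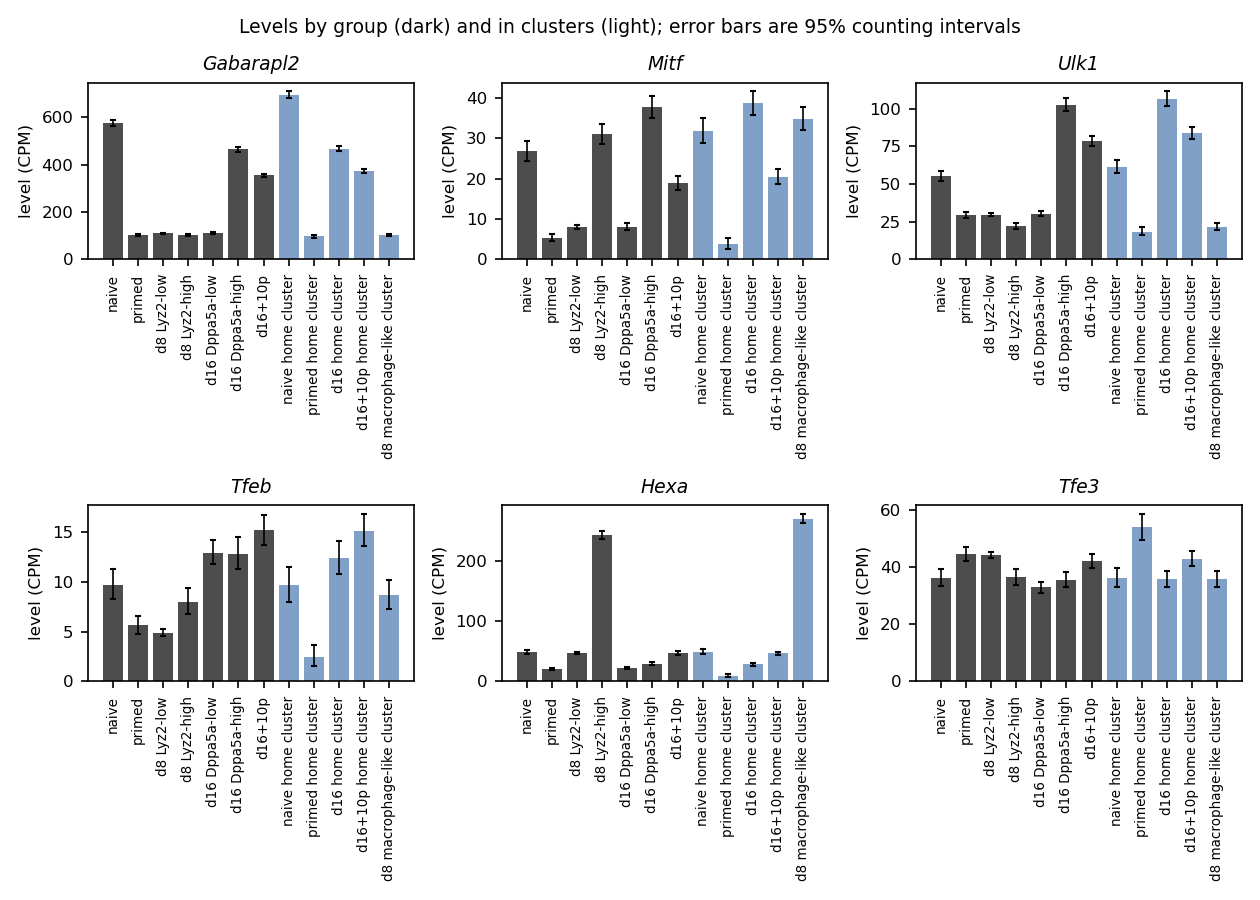
Levels in CPM of 6 genes in the 7 groups (dark bars) and in 5 clusters (light bars), with 95% counting intervals as error bars and axes from 0. Gabarapl2 reaches 355 to 576 CPM in naive, d16 Dppa5a-high and d16+10p cells and 102 to 110 CPM in the other groups; Hexa has its highest bars in d8 Lyz2-high and macrophage-like cells, and Tfe3 in the primed home cluster.

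Primed were compared with naive cells to find which genes of the list separate the starting state from the target state. Over all tagged cells 1 of 34 tested genes was higher (Ctsk, 73.8 against 27.7 CPM) and 3 were lower (Gabarapl2, Mitf and Hexa), where 3.55% and 4.69% of all genes were. TMM scaling kept these 4 calls and moved the upward share of calls over all genes from 43.1% to 32.2%. Between home clusters 0 were higher and 4 were lower, with Ulk1 as the fourth, against 4.88% and 7.57% of all genes. Ctsk was then at 25.1 and 19.4 CPM. In that comparison 30 of the 35 ratios were below 0, with a median of -0.41 against 0.01 for all genes tested. Map1lc3b, the Atg8 gene most used as an autophagosome marker, was at 137 CPM in the primed and 270 CPM in the naive home cluster (-0.97), and Ctsa at 37.0 and 72.6 CPM (-0.95). Both fell just short of 2-fold.

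The d8 Lyz2-low cells were compared with primed cells, the population that was treated. Primed cultures were grown on MEF, and which d8 cells descend from primed cells and which from feeders was not tested. Over all tagged cells 1 gene of 33 tested was higher (Hexa) and 2 were lower (Ctss and Atp6v0d2), against 2.57% and 2.98% of all genes, although 27 of the 35 ratios were above 0. Without cells over the Lyz2 cut, Ctss and Atp6v0d2 were no longer called, and Ctsb, Ctsd, Ctsl and Hexa were higher. Against the primed home cluster the difference was wider: 19 of 33 were at least 2-fold higher and 0 lower, with 14.1% and 8.08% of all genes. The median log2 ratio of the 35 genes was 1.05, against 0.14 for all genes tested. The 19 were Hexa (2.21), Ctsb (2.11), Ctsl and Grn (1.84 each), Ctsd (1.68), Gabarap (1.67), Lamp2 (1.62), Gaa, Psap, Ctsa, Wipi1, Npc2, Sqstm1, Atg7, Npc1, Atp6v0d1, Ctsk, Lamp1 and Ctsz. Grn encodes progranulin, a growth factor-like protein that is also delivered to lysosomes, at 311 CPM in d8 Lyz2-low cells and 86.0 CPM in the primed home cluster. Of genes with CACGTG in their window 7 of 9 were called, and of those without it 10 of 20. Other comparisons differed: within d16, 3 of 9 with it and 9 of 20 without it were lower. From primed to d16 home clusters 0 of 9 with it and 5 of 20 without it were higher. Calls over all genes with and without CACGTG were not counted, and a part of the motif in these levels was not tested. The d8 Lyz2-low cells are not 1 cell type. They lay largely in fibroblast-like, epithelial-like and smooth muscle-like clusters. Cells with the d8 tag also made up most of cluster 2, with Lefty1 and Fgf8 (69.0%), cluster 9, with Cer1 and Lhx1 (81.8%), and cluster 10, with T and Shh (82.6%). Only 0.361% of d8 Lyz2-low cells lay in Pou5f1-high clusters. A change of cell type and a change of level within a type therefore cannot be told apart here.

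From primed cells to d16 Dppa5a-high cells, 4 of 35 genes were higher (Mitf, Gabarapl2, Ulk1 and Tfeb) and 2 lower (Ctsk and Ctss), against 6.49% and 4.78% of all genes. Between home clusters 5 were higher and 0 lower, against 9.75% and 3.85%. Hexa was the fifth, at 28.7 against 9.41 CPM (1.51). Ctss and Ctsk, which mark macrophage-like and fibroblast-like cells here, then had log2 ratios of 0.14 and -0.21. The 3 genes of the lumen, Npc2, Psap and Grn, had log2 ratios of 0.39, 0.23 and 0.53 between home clusters and of -0.20, -0.60 and -0.37 over all tagged cells, within 2-fold both times. All 7 cathepsins were within 2-fold between home clusters.

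After 10 passages in 2iL, 0 of 35 genes differed by 2-fold from d16 Dppa5a-high cells in either direction, while 0.557% of all genes were higher and 1.63% lower. Against naive cells, too, 0 of 35 were called, and 0.862% and 0.614% of all genes were. Over all cells, 27 of the 35 ratios against naive were below 0, with a median of -0.27. Between home clusters 22 were below 0 and the median was -0.11. The ratios there ranged from -0.90 for Gabarapl2 to 0.60 for Tfeb. With no replicate, it cannot be said that differences smaller than 2-fold are absent. Under the cut at 2000 CPM and as a mean over cells, Mitf was lower than at d16 by 2-fold or more.

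The d8 Lyz2-low, d16 Dppa5a-low and primed groups are mixtures, so the genes were also followed over the 15 clusters of at least 100 cells. Cluster names rest on marker genes and clusters without enough markers keep their number. Ctss was at 3034 CPM in macrophage-like cluster 8 and at 38.3 to 59.3 CPM in the other 14. Atp6v0d2 was at 1099 CPM there and at 17.0 to 23.2 CPM elsewhere, and Gpnmb at 4622 CPM and 51.4 to 155 CPM. Lipa was at 1482 and 32.4 to 95.7 CPM. Cluster 8 had the highest level of 18 of the 35 genes, against 6.03% of all genes that reached 10 CPM in a cluster. For these 4 the next highest clusters were fibroblast-like for Gpnmb (cluster 0) and Lipa (cluster 6).

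Another set was raised in fibroblast-like cluster 0 as well, whose cells were 92.5% d8. Ctsb was at 6997 CPM in cluster 8, 2176 in cluster 0 and 211 to 822 in the others. Ctsl was at 7498, 2251 and 333 CPM in cluster 8, cluster 0 and the lowest cluster, Psap at 6563, 1613 and 270 CPM, and Npc2 at 1820, 1299 and 285 CPM. Hexa was at 263 CPM in cluster 8, 140 in cluster 0 and 8.87 CPM in the lowest, epithelial-like cluster 1. Lamp2 was highest in the fibroblast-like clusters (532 CPM in cluster 0 and 491 in cluster 6), ahead of cluster 8 (440 CPM). Gaa was likewise highest in cluster 0 (150 CPM) and cluster 6 (125 CPM), against 81.4 CPM in cluster 8.

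Several other members were highest in further clusters. Map1lc3a was highest in neural-like cluster 13 (60.9 CPM against 13.0 to 44.8 CPM), as was Gabarapl1 (102 CPM). Sqstm1 was highest in epithelial-like cluster 1 (519 CPM). Npc1, the lysosomal cholesterol transporter, was highest in cluster 9 (122 CPM), which is led by Cer1 and Lhx1, genes of anterior and organizing tissue of the early embryo. Tfeb was highest in cluster 3 (16.9 CPM), while Wipi1 was highest in fibroblast-like cluster 6 (105 CPM). Becn1, a subunit of the lipid kinase complex of autophagy, varied from 45.4 to 61.5 CPM. Primed home cluster 12 had the lowest level, ties included, of 18 of the 35 genes and of 11.3% of all genes that reached 10 CPM in a cluster. The 18 included Lamp1, Lamp2, Ctsb, Ctsd, Psap, Npc2 and Grn.

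**Figure D4:**
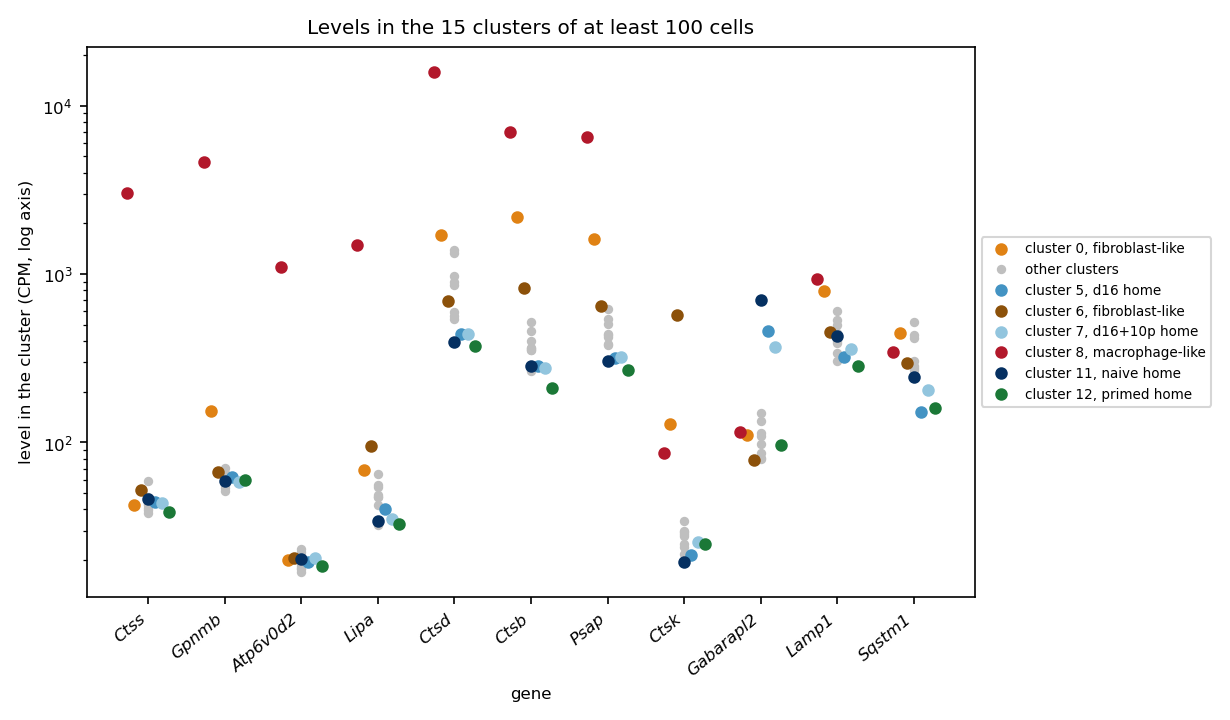
Levels in CPM, on a log axis, of 11 genes in the 15 clusters of at least 100 cells, with macrophage-like, fibroblast-like and home clusters in colour and the other clusters in grey. Ctss, Gpnmb, Atp6v0d2 and Lipa have 1 high point, cluster 8; Ctsk is highest in cluster 6, and Gabarapl2 in clusters 11, 5 and 7.

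The 3 genes with the largest d8 ratios were low, but not at 0, in the other 6 groups. With cells over the Lyz2 cut left out, Ctss in the other 6 groups was 1.42 to 1.57% of its d8 Lyz2-high level, Atp6v0d2 1.71 to 1.98% and Gpnmb 1.22 to 1.97%. The same percentage of the d8 Lyz2-high level equalled 48.0% of the Ctsd level and 33.1% of the Ctsb level in d16 Dppa5a-high cells, and 50.2% and 32.5% in naive cells. For Lamp1 these parts were 4.23% and 3.21%, and for Gabarapl2 they were 0.335% and 0.278%. Whether RNA of macrophage-like cells is read in other cells of the pooled library was not tested. After thinning, a Ctss read was found in 16.5 to 19.6% of cells in those 6 groups, all tagged cells included, and in 91.2% of d8 Lyz2-high cells.

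A wider list of 113 genes of the same pathways, which holds no member, was read in the same way. Between d8 Lyz2-high and Lyz2-low cells, 22 of 107 tested were higher and 1 was lower, where 6.5% of all genes were higher and 7.74% lower. The 3 largest were Laptm5 (425 against 9.27 CPM), a lysosomal membrane protein of blood cells, Cd68 (828 against 44.1 CPM), which is also 1 of the 12 macrophage markers, and the cathepsin Ctsh (106 against 4.99 CPM), and the gene that was lower was the autophagy receptor gene Calcoco1 (43.9 against 93.9 CPM). Of those 22, 16 were among 42 other hydrolases and membrane proteins, 4 among 15 other V-ATPase subunits, 1 among 34 other autophagy genes and 1 among 16 genes of the mTORC1 and folliculin pathway. Between d16 Dppa5a-high and Dppa5a-low cells, 19 of 108 were lower and 2 higher. With 16.6% of all genes lower and 11.2% higher, the decreases were about as frequent as over all genes. The largest decreases were those of Ctso (8.13 against 34.1 CPM), Sort1, which sorts proteins to the lysosome (21.8 against 84.6 CPM), and the sulfatase Arsa (10.3 against 37.0 CPM). The higher ones were Acp5, an acid phosphatase (29.1 against 7.25 CPM), and Ctsc (18.1 against 6.68 CPM).

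Ctsc, which activates other proteases, also separated the pluripotent states: it was at 22.4 CPM in naive and 4.99 CPM in primed cells, 1 of 4 pathway genes of 102 that were lower in primed cells, beside Sort1 as the 1 that was higher. Of all genes, 4.69% were lower and 3.55% higher. Of 103 tested, 5 were higher in d16 Dppa5a-high than in primed cells, led by Acp5, Ctsc and Manba, and 0 were lower, against 6.49% and 4.78% of all genes, so that increases were no more frequent than over all genes. From d16 Dppa5a-high to d16+10p cells, 3 of 99 were lower and 0 higher, against 1.63% and 0.557% of all genes. They were Bnip3, a mitophagy receptor (44.0 against 177 CPM), the beta-mannosidase Manba (9.38 against 24.8 CPM) and Acp5 (11.7 against 29.1 CPM). Against naive cells, Ctsc alone was called in d16+10p cells, at 9.68 against 22.4 CPM. Between d8 Lyz2-low cells and primed cells 0 of 101 were higher and 1 was lower (Bnip3), but against the primed home cluster 33 of 100 were higher and 0 lower, with 14.1% and 8.08% of all genes. The largest of these differences was that of Cd63 (1499 against 275 CPM), which encodes 1 of the surface proteins the tags were bound to. None of the 16 tested genes of the mTORC1 and folliculin pathway was called between primed and naive, d16 Dppa5a-high and primed, d16+10p and d16 Dppa5a-high, or d16+10p and naive cells. In these comparisons 0.557 to 6.49% of all genes were called in each direction, so 0 of 16 lay near that share. Against the primed home cluster, 3 of the 16 were higher in d8 Lyz2-low cells, among them Fnip1 (64.6 against 21.6 CPM).

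Exons of 10 members overlap those of a gene on the other strand, among them Becn1 with Cntd1, Ctsb with Fdft1, Ctsa with Pltp and Sqstm1 with Mrnip. Whether the counting used strand is not given in the sources used here, so the values of these pairs are uncertain over the shared stretches. Fdft1 was at 48.0 to 106 CPM where Ctsb was at 306 to 6542 CPM. Ctsd shares 808 exon bases on the same strand with Gm49369, which was at 6.45 to 92.2 CPM and highest in d8 Lyz2-high cells, as Ctsd was.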

How the data were processed

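The 5 populations were tagged with antibodies to CD9 and CD63, pooled, captured on a BD Rhapsody cartridge and sequenced as 1 cDNA and 1 tag library. The authors trimmed reads with cutadapt 2.10, mapped them to Ensembl transcripts of GRCm38 with Bowtie2 2.3.4.1, kept barcodes above the inflection of the knee plot and removed doublets by tag reads. The deposited values are whole-number counts of reads per gene and cell, not normalised, and no collapsing of molecular identifiers is described. The table held 33963 genes and 17720 cells with 3179 to 111822 reads each, and its column names gave the population of every cell.

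Counts were summed per group and scaled to CPM. The log2 ratios used a pseudocount of 1 CPM, and genes under 10 CPM in both groups were not tested. Intervals at 95% (exact Poisson for levels, exact binomial for ratios, the latter without the pseudocount, so that a ratio can lie outside its interval) cover counting error only, since amplified reads are not independent molecules. With 1 sample per population there was no test and no replicate check. Clusters of cells were found by Seurat 5.3.0 (R 4.3.3, 2000 variable genes, 56 components, 50 neighbours, resolution 0.8). Sums were made in Python 3.11.15 with numpy 2.4.6, scipy 1.17.1 and pandas 2.3.3, TMM factors with edgeR 4.0.16, and the ratio code was tested on simulated data. All 35 members are reported, and of the wider pathway lists the called genes with the 3 largest and 3 smallest ratios of a comparison were open to naming. The members and lists were chosen with earlier results of these data known. Alternatives changed the scaling, the total, the weight of each cell, the pseudocount, the filter, the cuts, the cell filter and the cells used. Promoter windows were taken from RefSeq.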

Additional observations from a re-analysis of the deposited data

How the results depend on the processing

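Of 168 recomputed counts of called members, 143 stayed within 1.5 times the reported count and 25 did not. Of 2940 single ratios, 2264 stayed within their counting interval, 672 left it and 4 changed direction after having been called. Of 84 medians over the members, 24 moved by more than the typical counting error of a ratio. In what follows, a percentage in brackets is the share of all genes tested that was called the same way in the same setting and comparison. With clusters in place of tags, 19 members instead of 1 were higher (14.1%) and 0 lower (8.08%) in d8 Lyz2-low than in primed cells. There, 0 were higher in primed than in naive cells (4.88%), and 0 were lower in d16 Dppa5a-high than in primed cells (3.85%). Ctss then had log2 ratios of 0.046 for d8 Lyz2-low and 0.14 for d16 Dppa5a-high against primed cells. Without cells over the Lyz2 cut, 4 members were higher (2.75%) and 0 lower (2.99%) in d8 Lyz2-low than in primed cells. In d16 Dppa5a-high cells 7 were lower (16.5%) than in Dppa5a-low cells, with Gpnmb at 0.0081. Against primed cells 1 was lower (4.74%) in d16 Dppa5a-high cells, with Ctss at 0.058. Subtracting a macrophage background was an alternative chosen after seeing the data. It gave 6 higher (2.97%) and 0 lower (3.11%) for d8 Lyz2-low against primed cells, and 1 lower (4.96%) for d16 Dppa5a-high against primed cells. As a mean of CPM per cell, 0 were higher (1.30%) and 4 lower (2.86%) in d8 Lyz2-low than in primed cells. In this setting 8 were lower (8.63%) in d16 Dppa5a-high than in primed cells, and 1 was lower (2.01%) in d16+10p than in d16 Dppa5a-high cells. With a pseudocount of 10 CPM, the counts against primed cells were 0 higher (1.23%) and 1 lower (1.00%) for d8 Lyz2-low, and 1 lower (1.61%) for d16 Dppa5a-high. At 50 CPM or more, 0 were higher (3.27%) and 1 lower (2.92%) for d8 Lyz2-low against primed cells. At that filter 2 were higher (6.03%) for d16 Dppa5a-high against primed, and 1 was lower (3.93%) for primed against naive cells. With cuts at 2000 CPM, 4 were lower (6.22%) for d16 Dppa5a-high against primed and 1 (1.61%) for d16+10p against d16 Dppa5a-high cells. With more than 2000 and fewer than 8000 genes per cell, 1 was lower (4.68%) for d16 Dppa5a-high against primed cells. Beyond what each alternative's own construction shows, the cause was not tested. Counts within d8 stayed at 12 to 14 higher and 0 lower, while 2.86 to 8.73% of all genes were higher and 1.61 to 14.0% lower. No paired analysis was possible because every population was 1 sample. Levels under 10 CPM, such as those of Tfeb in several groups, limit what can be called.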
